A study of Mus musculus with 4 samples.

Results

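The nuclear genes for the subunits of the respiratory chain and the ATP synthase were examined in mouse embryonic stem cells after knockdown of Cyrano. Members were chosen by symbol alone: every row of the count files that starts with Ndufa, Ndufb, Ndufc, Ndufs or Ndufv and a number, Sdha to Sdhd, every Uqcr, Cox4 to Cox8 and Atp5 symbol, and Cyc1, without the Ndufaf assembly factors and without -ps symbols. The rule gave 85 of the 23366 gene symbols in the files. By complex these were 37 genes of complex I, 4 of complex II, 9 of complex III, 18 of complex IV and 17 of complex V. Of the 85 genes, 80 had enough reads to be tested, among 13199 genes tested in all. Atp5s and Atp5sl carry the Atp5 prefix although they are not structural subunits, and Ndufa4, named for complex I, is now placed in complex IV by structural work.

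The cells were R1, a mouse embryonic stem cell line of the strain background 129X1 x 129S1, grown on gelatin in medium with serum, serum replacement and the cytokine LIF. Both groups received the vector pSicoR-Ef1a-mCh-Puro, which carries a fluorescent and a puromycin resistance marker. In the 2 control libraries it expressed a non-targeting hairpin, and in the 2 knockdown libraries a hairpin RNA against Cyrano, a noncoding transcript that binds the microRNA miR-7 through a conserved site. Cells that took up the vector were selected with puromycin or sorted by flow cytometry, and RNA was isolated with either of a pair of kits. For no library do the labels name the one used. The libraries are called biological replicates, with nothing said of how the cultures were kept apart, and a p-value here can reflect only their spread. In bulk RNA, fewer cells of a type and less RNA per cell cannot be told apart.

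Oxidative phosphorylation takes place in the inner mitochondrial membrane. Complex I (NADH dehydrogenase) and complex II (succinate dehydrogenase) pass electrons to ubiquinone, complex III passes them on to cytochrome c, and complex IV (cytochrome c oxidase) reduces oxygen to water. Complexes I, III and IV pump protons across the membrane, and complex V, the ATP synthase, uses the return flow to make ATP. The complexes are built from subunits encoded in the nucleus and, except in complex II, from a few encoded in mitochondrial DNA. Mouse embryonic stem cells in serum and LIF are known to respire as well as to use glycolysis. The files list none of the 13 mitochondrially encoded subunits under the symbols searched, so the values below are for nuclear transcripts only.

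Since Cyrano carries a miR-7 site and miR-7 acts through seed matches, seed sites of the subunit genes are shown first. In each line the capitals mark the seed of the microRNA (bases 2 to 8) or the matching bases in the 3′ UTR, GTCTTCC or TCTTCCA on the sense strand (these overlap in TCTTCC).
mmu-miR-7a-5p: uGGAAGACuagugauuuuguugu
Atp5g1: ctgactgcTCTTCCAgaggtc
Atp5j2: ctgtgcgtTCTTCCAcctgag
Cox6a1: tactctgaTCTTCCAtccctt
Ndufb3: gtgacgtcTCTTCCAtaaaaa
Sdhd: gataaactGTCTTCCcaccgt
These are 5 of the members with a match. In all, 6 of 79 tested members with a searched 3′ UTR held one (7.59%), against 3329 of all 12591 such genes (26.4%). The 3′ UTRs of the subunit genes were short, with a median of 203 bases against 1192 bases over all genes searched. That of Atp5g1, whose site is printed above, was much longer, at 4252 bases. The median log2 fold change, knockdown over control, was 0.01 for the 6 members with a match and 0.21 for the members without one. Over all genes searched the medians were -0.04 with a match and 0.01 without.

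The promoters of these genes are known for sites of NRF1, of ETS factors such as GABP, and of YY1. A window from 250 bases before to 50 after the start of transcription (RefSeq, GRCm38.p6) was found for 69 members and searched on both strands. GCATGCGC (NRF1) was in 10 of the 69 members (14.5%), against 3.05% of 27025 genes with a window and 6.24% of the tested ones. CCGGAAG (ETS) was in 16 members (23.2%), against 9.93% of all and 19.4% of tested genes. AAGATGGCG (YY1) was in 8 members (11.6%), against 1.64% of all and 3.5% of tested genes. A stretch upstream of Atp5l holds the NRF1 and ETS motifs, and the transcript of this gene was among the most different between groups. A stretch upstream of Atp5j holds the YY1 and ETS motifs. Both are printed 5′ to 3′ on the sense strand, with the motifs in capitals (on the reverse strand CCGGAAG reads CTTCCGG).
Atp5l, GRCm38.p6 chr9:44920913-44920989, minus strand: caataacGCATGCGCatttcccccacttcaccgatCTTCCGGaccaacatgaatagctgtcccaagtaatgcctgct
Atp5j, GRCm38.p6 chr16:84835021-84835099, minus strand: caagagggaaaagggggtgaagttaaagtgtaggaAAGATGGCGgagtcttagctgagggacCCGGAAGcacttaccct
The median log2 fold change was 0.23 with and 0.21 without the NRF1 motif, 0.28 with and 0.21 without the ETS motif, and 0.24 with and 0.21 without the YY1 motif. A motif match describes letters in a window and is not evidence of binding.

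Cyrano itself, listed as 1700020I14Rik, had 407 and 286 counts in the control group against 89 and 68 counts under the hairpin, a log2 fold change of -2.48 ± 0.30 (SE) (adjusted p 0.0070, edgeR). Gene counts summed to between 16854403 and 22321102 per library. Ribosomal RNA precursor (Rn45s) made up 17.5% and 15.9% of control counts against 12.3% and 11% of knockdown counts. With it and Lars2 left out, the subunits' median log2 fold change was 0.20, beside 0.21 with all genes. Stem cell markers were present in all libraries: the 8 genes listed, among them Pou5f1, Sox2 and Nanog, summed to 4412 and 4620 CPM (read counts scaled to library size) in the controls and 4287 and 4115 CPM in the knockdown libraries, and none was at 0. Of these, 6 of 8 did not overlap between groups. Pou5f1, Nanog, Zfp42 and Esrrb lay lower in both knockdown libraries, and Sox2 and Dppa5a lay higher. Nanog had 215.8 and 227.8 CPM in the controls and 128.9 and 132.9 CPM in the knockdown libraries, while Dppa5a had 351.7 and 273.9 CPM against 427.1 and 397.6 CPM. The 7 primitive endoderm markers summed to 99.8 and 119.3 CPM in the controls and 161.7 and 200.1 CPM in the knockdown libraries, with 6 of 7 not overlapping between groups. Over all genes, 22.3% lay above and 21.3% below both controls in both knockdown libraries. Trophectoderm markers ranged from 49.0 to 62.1 CPM, fibroblast markers from 26.3 to 53.1 CPM with Col3a1, Postn and Lum without a read, and muscle markers from 5.25 to 7.18 CPM. The part of primitive endoderm cells in the values below was not tested.

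Subunit transcripts tended to be slightly more abundant in the knockdown libraries, but no member passed the test across all genes. Of the 80 members tested, 65 had a log2 fold change above 0 and 15 below 0, against 6575 and 6624 of all 13199 genes. Their median was 0.21, with quartiles at 0.05 and 0.32, against a median of 0.00 and quartiles at -0.23 and 0.22 over all genes. Summed over the 85 genes, the level was 13400 and 15210 CPM in the controls and 16240 and 16590 CPM in the knockdown libraries, a ratio of 1.15. The controls differed from each other by more than control 2 differed from either knockdown library.

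By edgeR's quasi-likelihood test, 0 members had an adjusted p under 0.05, where 0.0833% of all genes did (11 of 13199). Limma-voom also called 0 members, with 0.0227% of all genes called. DESeq2 called 4 members, with 1.38% of the genes it gave an adjusted p called: Atp5g3, Atp5l and Ndufc2 higher and Sdha lower in the knockdown. At an unadjusted p under 0.05 in edgeR there were 19 members higher, where 6.18% of all genes were, and 2 lower, where 5.43% of all genes were. Both knockdown libraries lay above both controls in 44 of the 80 members, where 22.3% of all genes did so. They lay below both controls in 5 members (Ndufb3, Sdha, Cox6b1, Cox6b2 and Atp5g2), where 21.3% of all genes did so.

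**Figure D1:**
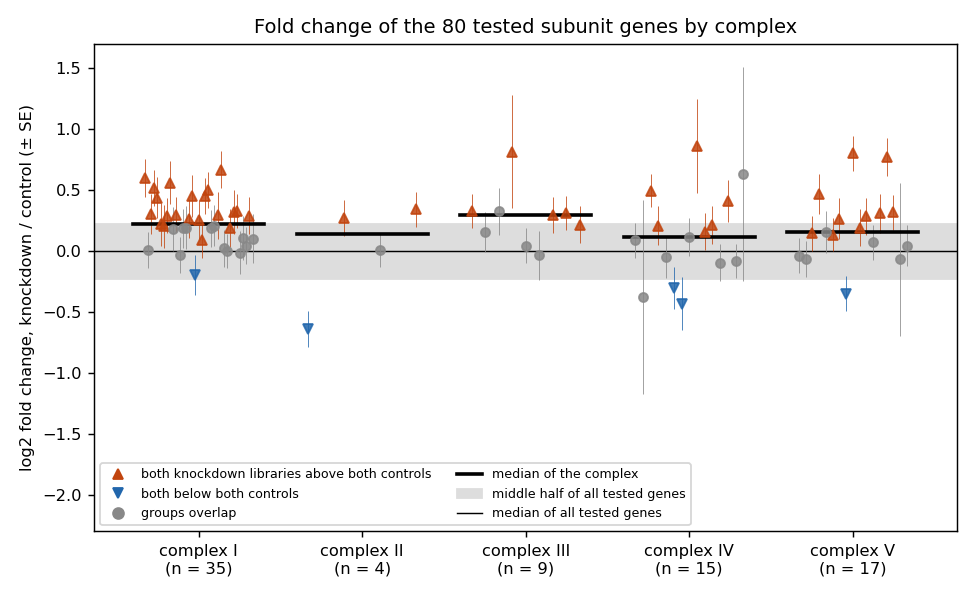
Log2 fold change, knockdown over control, with its SE for each of the 80 tested subunit genes, by complex on the x axis. Upward triangles are genes with both knockdown libraries above both controls (44 genes), downward triangles genes with both below (5 genes), and the grey band spans the quartiles of all tested genes. Most genes of complexes I and III lie above 0, while those of complex IV lie on both sides.

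The size of this difference depended on which control was used, and with 2 controls it cannot be told which of them is the less typical. The level was lower in control 1 than in control 2 in 67 of the 80 members, against 6792 of all 13199 genes. Without control 1 the members' median was 0.08, with 52 members above 0 and 28 below, and the median over all genes was 0.00. Without control 2 it was 0.34, with 69 members above 0. The median was 0.18 without knockdown 1 and 0.26 without knockdown 2. Leaving out either control thus moved the members' median by more than leaving out either knockdown library.

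Most subunit transcripts are short, and in these libraries fold changes followed transcript length. Of the 80 members, 66 lay in the shortest of 5 equal groups of all genes by length (70 to 1619 bases), 9 in the second, 4 in the third, 1 in the fourth and 0 in the longest. In the shortest group the members' median log2 fold change was 0.22 and that of all genes 0.12. There, 83.3% of the members and 65.2% of all genes lay above 0, and 62.1% of the members and 33.5% of all genes had both knockdown libraries above both controls. Lengths were not matched within this group, and the median length over all 80 members was 786 bases. In the second group the medians were 0.04 for the members and 0.05 for all genes, and in the third -0.01 and 0.01. With an offset that removes the trend with transcript length and GC content, the members' median was 0.11, with 59 above 0 and 21 below, beside 0.01 over all genes.

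**Figure D2:**
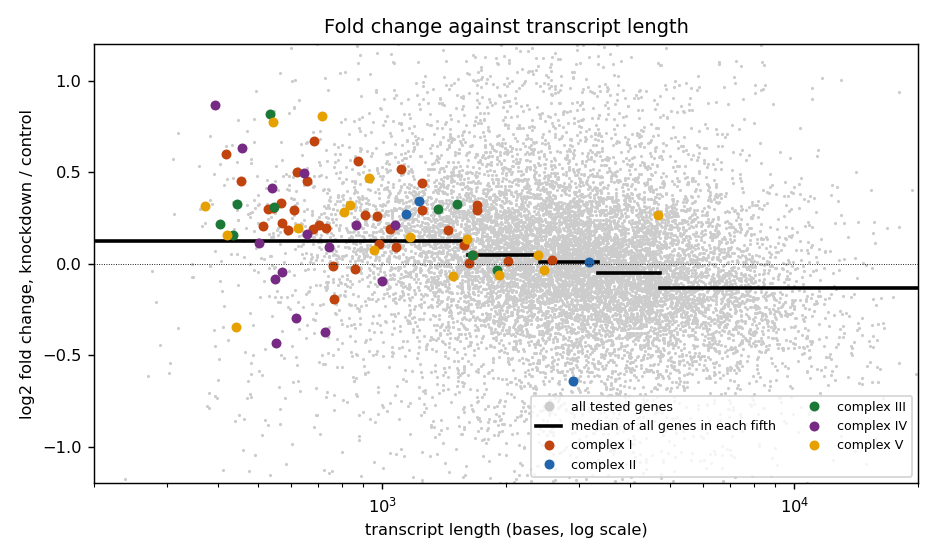
Log2 fold change, knockdown over control, against transcript length on a log axis, for all tested genes (grey) and for the subunits by complex (colours). Black bars are the median over all genes in each of 5 equal groups by length, falling from 0.12 in the shortest to -0.14 in the longest, and genes beyond the ends of the axes are not drawn. The subunit genes crowd into the shortest group.

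Complex I, the largest of the complexes, had 35 genes tested, of which 32 lay above 0 and 3 below, with a median log2 fold change of 0.22. In 21 of them both knockdown libraries lay above both controls, where 22.3% of all genes did and 33.5% of those in the shortest length group. In 1, Ndufb3, both lay below, at 47.9 and 51.3 CPM in the controls and 44.6 and 42.1 CPM in the knockdown libraries. Summed levels were 2773 and 3285 CPM in the controls and 3570 and 3554 CPM in the knockdown libraries. Apart from Ndufa4 and Ndufa4l2, the genes were split by role into the catalytic core and the supernumerary subunits around it. Ndufa4 was kept in the counts and the median of complex I. The 7 core subunits, which carry the flavin and the iron-sulfur clusters, had a median of 0.04 and none had an unadjusted p under 0.05. The 27 supernumerary subunits tested had a median of 0.27. Of these, 25 lay above 0, where 49.8% of all genes did and 65.2% of those in the shortest length group. At an unadjusted p under 0.05 in edgeR there were 9, all of them higher, where 6.18% of all genes were. The median transcript length of the supernumerary subunits was 732 bases, against 1623 bases for the core subunits. No test of the difference between these sets was made, and with the length and GC offset the medians were 0.03 and 0.15. The median over complex I was 0.14 without control 1, 0.39 without control 2 and 0.12 with the offset.

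Among the core genes, Ndufv1, the flavoprotein that accepts electrons from NADH, had 169.2 and 213.1 CPM in the controls and 191.2 and 203.1 CPM in the knockdown libraries. Ndufs1, the largest core subunit, had 81.9 and 68.7 CPM against 78.4 and 74.6 CPM. The groups overlapped in both. Of the core genes, both knockdown libraries lay above both controls in Ndufv2 (133.7 and 166.2 CPM against 180.6 and 186.3 CPM) and in Ndufs3 (72.6 and 74.5 CPM against 76.5 and 91.4 CPM). These core genes were added after their values were seen.

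The lowest p values of complex I belonged to small accessory subunits. Ndufc2, of the membrane arm, had 56.6 and 65.0 CPM in the controls and 100.0 and 93.4 CPM in the knockdown libraries, with a log2 fold change of 0.67 ± 0.15 (SE) and an adjusted p of 0.123 by edgeR. Ndufa1, a membrane arm subunit encoded on the X chromosome, had 44.2 and 44.3 CPM in the controls and 67.9 and 65.9 CPM in the knockdown libraries, with a log2 fold change of 0.60 ± 0.16 and an adjusted p of 0.178 by edgeR. In both genes the groups stood well apart, with a gap several times the spread within a group. Ndufa12, which sits on the peripheral arm, had 90.4 and 101.5 CPM in the controls and 131.8 and 143.1 CPM in the knockdown libraries (log2 fold change 0.52 ± 0.15, edgeR adjusted p 0.195). Of its 50-base windows, 26.2% also occur in a pseudogene. DESeq2's adjusted p was 0.0230 for Ndufc2, 0.0694 for Ndufa1 and 0.0989 for Ndufa12.

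Per kilobase of transcript, the most abundant complex I genes were Ndufa4 (253.8 CPM per kb over the 4 libraries) and Ndufa7 (249.7 CPM per kb). Ndufa4 had 129.0 and 149.3 CPM in the controls and 170.1 and 170.8 CPM in the knockdown libraries, and Ndufa7, of the NADH-binding module, had 108.0 and 128.3 CPM against 144.7 and 146.4 CPM. Both had knockdown libraries above both controls, with log2 fold changes of 0.29 ± 0.14 and 0.30 ± 0.15 and edgeR adjusted p values of 0.457 and 0.453. Without control 1 the log2 fold changes were 0.19 and 0.18, and with the length and GC offset that of Ndufa4 was 0.08. Ndufa4l2, a paralog of Ndufa4 known as a target of hypoxia signalling, had 0 and 0 counts in the controls and 6 and 7 counts in the knockdown libraries, too few to be tested. Ndufs5 had 0, 0, 5 and 0 counts, and 41.2% of its 50-base windows are shared with a pseudogene. The cause of its low counts was not tested.

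Complex II has no mitochondrially encoded subunit and also works in the tricarboxylic acid cycle. Its 4 genes did not share a direction. Sdha, the flavoprotein that oxidizes succinate, had 273.7 and 224.8 CPM in the controls and 164.6 and 155.2 CPM in the knockdown libraries, with a log2 fold change of -0.64 ± 0.15 (SE), the lowest of all 80 members. Its adjusted p was 0.138 by edgeR and 0.0211 by DESeq2. Sdhb, the iron-sulfur subunit and its catalytic partner, had 105.9 and 117.2 CPM in the controls and 126.1 and 143.2 CPM in the knockdown libraries (log2 fold change 0.27 ± 0.15, edgeR adjusted p 0.50). The groups did not overlap in either gene, and the directions were opposite.

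The membrane anchors of complex II bind ubiquinone. Sdhc had 117.5 and 117.8 CPM in the controls and 114.0 and 123.1 CPM in the knockdown libraries, so the groups overlapped (log2 fold change 0.01 ± 0.14). Sdhd had 152.6 and 169.8 CPM in the controls and 193.2 and 215.5 CPM in the knockdown libraries (log2 fold change 0.34 ± 0.14, edgeR adjusted p 0.378), and its log2 fold change was 0.21 with the length and GC offset. The median over the 4 genes was 0.14, and 0.07 without knockdown 2. As a whole complex II had a summed level of 649.7 and 629.5 CPM in the controls and 597.9 and 637.0 CPM in the knockdown libraries. Sdha is also the longest but one of the 4 transcripts at 2900 bases, and its log2 fold change was -0.65 with the length and GC offset.

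**Figure D3:**
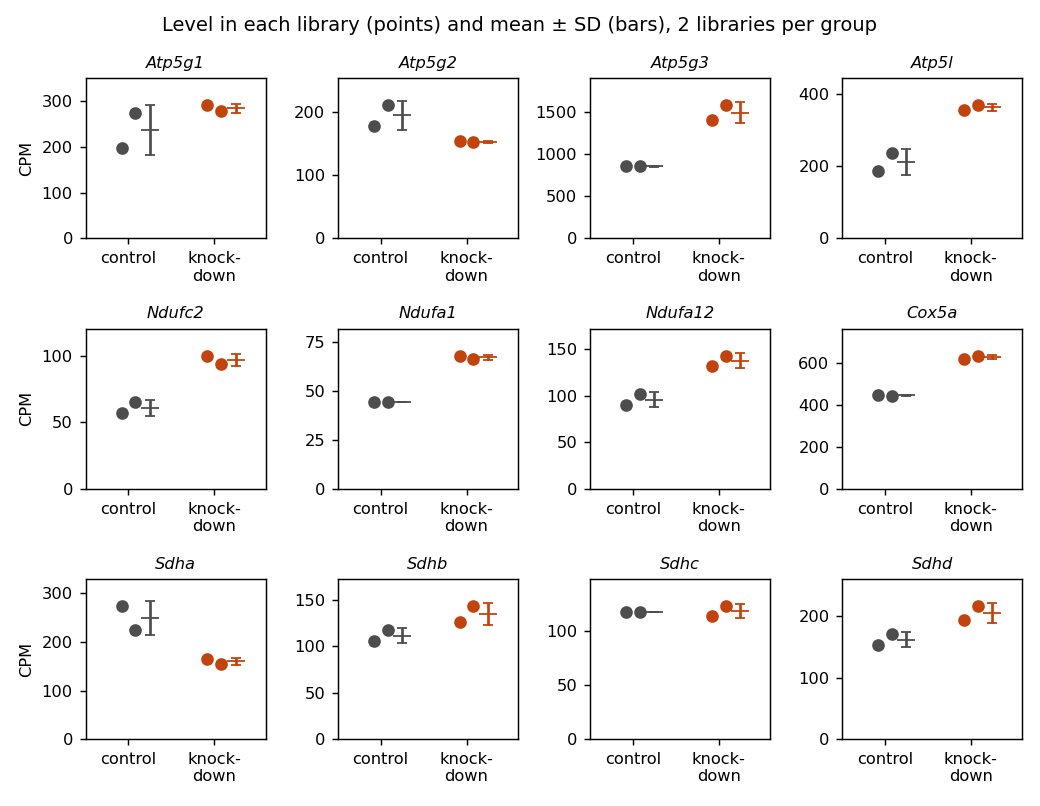
Level in CPM of 12 subunit genes in each library, with controls in grey and knockdown libraries in orange, and the mean with its SD beside the points (2 libraries per group). Each panel has its own axis from 0. Atp5g3, Atp5l, Ndufc2, Ndufa1, Ndufa12 and Cox5a lie higher in both knockdown libraries, Sdha and Atp5g2 lie lower, and Sdhc overlaps.

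Complex III had 9 genes tested, with 8 above 0, 1 below and a median log2 fold change of 0.30. The median was 0.16 without control 1, 0.18 without knockdown 1 and 0.17 with the length and GC offset. Both knockdown libraries lay above both controls in 5 genes, where 22.3% of all genes did, and below in 0. Cyc1, cytochrome c1, which hands electrons to cytochrome c, had 247.1 and 266.1 CPM in the controls and 311.8 and 332.2 CPM in the knockdown libraries (log2 fold change 0.33 ± 0.14, edgeR adjusted p 0.385). Uqcrfs1, the Rieske iron-sulfur protein, had 163.3 and 199.1 CPM against 227.3 and 218.3 CPM (log2 fold change 0.30 ± 0.15, edgeR adjusted p 0.464). Uqcrh, the acidic hinge protein, had 161.3 and 170.9 CPM against 210.2 and 201.7 CPM (log2 fold change 0.31 ± 0.14, edgeR adjusted p 0.413). The groups did not overlap in any of these, but for Uqcrfs1 the gap between them was smaller than the difference between the controls. The log2 fold change of Uqcrfs1 was 0.16 without control 1, and with the offset for length and GC content it was 0.17, beside 0.18 for Uqcrh.

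The large core proteins of complex III are related to mitochondrial processing peptidases, and their groups overlapped. Uqcrc1 had 380.6 and 422.1 CPM in the controls and 423.0 and 405.5 CPM in the knockdown libraries, and Uqcrc2 had 79.5 and 58.7 CPM against 56.1 and 78.9 CPM. Among the small subunits, Uqcrq and Uqcr11 were the most abundant per kilobase, at 474.2 and 379.2 CPM per kb. Uqcrq had 159.9 and 195.6 CPM in the controls and 216.9 and 195.8 CPM in the knockdown libraries, and Uqcr11 had 121.0 and 178.5 CPM against 208.4 and 167.1 CPM. For Uqcrq the groups just failed to overlap, and for Uqcr11 they overlapped. Uqcrb was listed at only 1.27 to 4.26 CPM, and 43.4% of its 50-base windows are shared with other genes.

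Complex IV had 15 genes tested, with 9 above 0, 6 below and a median of 0.11. Its median was -0.02 without control 1, 0.00 without knockdown 1, 0.20 without control 2, 0.22 without knockdown 2, and 0.01 under the offset for length and GC content. Cox5a, a nuclear subunit that contacts the catalytic core from the matrix side, had 447.0 and 441.5 CPM in the controls and 619.5 and 634.0 CPM in the knockdown libraries (log2 fold change 0.50 ± 0.14, edgeR adjusted p 0.194). Cox7c had 207.4 and 286.2 CPM against 355.8 and 301.9 CPM (log2 fold change 0.41 ± 0.17, edgeR adjusted p 0.373), with 53.0% of its windows shared with pseudogenes. Cox5a stood far apart between groups, with 32.0% of its windows shared with 3 other genes, 2 of them pseudogenes. The groups of Cox7c barely separated, by a margin smaller than the difference within either group. The log2 fold change of Cox7c was 0.20 without control 1, 0.66 without control 2 and 0.23 under the offset. Cox5a and Cox4i1 were the most abundant of the complex per kilobase, at 830.2 and 544.9 CPM per kb.

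Several complex IV subunits exist as a general form and a form typical of heart, skeletal muscle, lung or testis. Per kilobase of transcript the general form was the more abundant in each such group, for example Cox4i1 at 544.9 against Cox4i2 at 1.18 CPM per kb and Cox7a2 at 92.8 against Cox7a1 at 15.5 CPM per kb. Cox4i1 had 364.5 and 422.5 CPM in the controls and 396.6 and 440.2 CPM in the knockdown libraries, while the lung form Cox4i2 stayed between 0.23 and 1.25 CPM. Cox6a1 had 257.1 and 368.0 CPM against 290.0 and 315.0 CPM, while the muscle form Cox6a2 had 0, 7, 0 and 13 counts. Cox8a had 202.8 and 227.0 CPM against 198.2 and 208.0 CPM, while the muscle form Cox8b had no read and Cox8c stayed between 0.18 and 1.21 CPM. In Cox4i1, Cox6a1 and Cox8a the groups overlapped.

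Cox6b1 had 41.0 and 40.7 CPM in the controls and 34.9 and 31.5 CPM in the knockdown libraries, with a log2 fold change of -0.30 ± 0.17. The testis form Cox6b2 had 18.1 and 20.3 CPM against 15.0 and 13.5 CPM, with a log2 fold change of -0.43 ± 0.22. Both lay below the controls in both knockdown libraries, at edgeR adjusted p values of 0.526 and 0.469. Cox7a2 had 58.1 and 57.4 CPM against 66.7 and 62.4 CPM, and Cox7a2l, an assembly factor of supercomplexes, had 166.0 and 216.1 CPM against 224.7 and 217.8 CPM. The muscle form Cox7a1 had the highest log2 fold change of all members, 0.86 ± 0.39, from 2.49 and 6.09 CPM in the controls to 7.88 and 7.85 CPM in the knockdown libraries, with an edgeR adjusted p of 0.412. Its log2 fold change was 0.37 without control 1 and 1.65 without control 2. Cox7b had 85.5 and 90.7 CPM against 89.2 and 75.8 CPM, and Cox7b2 had a single read in all libraries together.

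Complex V had 17 genes tested, with 13 above 0, 4 below and a median of 0.16. The median was 0.06 without control 1 and 0.08 with the length and GC offset. Summed levels were 6355 and 7048 CPM in the controls and 7505 and 7928 CPM in the knockdown libraries. The 5 genes of the catalytic F1 head and its stalk summed to 3942 and 4433 CPM in the controls and 4139 and 4350 CPM in the knockdown libraries, so that the groups overlapped. Atp5b, the catalytic beta subunit, had 1736 and 1920 CPM against 1627 and 1870 CPM, and Atp5a1, the alpha subunit, had 1538 and 1716 CPM against 1543 and 1628 CPM. The groups overlapped in both. Atp5d, the delta subunit of the central stalk, had 325.6 and 398.5 CPM in the controls and 560.0 and 441.3 CPM in the knockdown libraries (log2 fold change 0.47 ± 0.16, edgeR adjusted p 0.294), with a difference within the knockdown group larger than the gap between groups. Its log2 fold change was 0.28 without knockdown 1.

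The c-ring turns as protons pass through the membrane, and 3 genes encode the same mature subunit c with different import signals. Atp5g3 had 850.9 and 853.9 CPM in the controls and 1401 and 1576 CPM in the knockdown libraries, a log2 fold change of 0.80 ± 0.14 (SE), or 1.75-fold. It had the lowest p of the members, with an adjusted p of 0.0632 by edgeR and 1.31e-04 by DESeq2. Atp5g1 had 197.4 and 273.9 CPM against 290.3 and 276.6 CPM (log2 fold change 0.27 ± 0.17, edgeR adjusted p 0.564), and its fold change was 0.05 without control 1 and 0.52 without control 2 on the log2 scale. Atp5g2 went the other way, with 178.5 and 210.9 CPM in the controls and 153.9 and 152.1 CPM in the knockdown libraries (log2 fold change -0.35 ± 0.15, edgeR adjusted p 0.374, and -0.23 without control 2). All of the 50-base windows of Atp5g2 recur in other genes, so its counts are uncertain, whereas 0% of those of Atp5g3 do. Added up, the c-ring genes had 1227 and 1339 CPM in the controls and 1845 and 2004 CPM in the knockdown libraries, a ratio of 1.5, and Atp5g3 was the most abundant member of complex V per kilobase at 1639 CPM per kb, ahead of Atp5b at 933.3 CPM per kb.

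Atp5l, subunit g of the membrane part, had 186.0 and 237.4 CPM in the controls and 355.6 and 368.5 CPM in the knockdown libraries, a log2 fold change of 0.77 ± 0.15. Its adjusted p was 0.0852 by edgeR and 0.00251 by DESeq2. Its groups stood far apart, and 84.8% of its windows are shared with 14 other genes, 12 of them pseudogenes. In the peripheral stalk, which holds the head still, all of Atp5f1, Atp5h, Atp5j and Atp5o had both knockdown libraries above both controls. Over all genes 22.3% did so, and 33.5% of those in the shortest length group. The log2 fold changes of the stalk genes ran from 0.14 to 0.32. In the same order, 38.7%, 50.5%, 16.3% and 50.3% of their windows are shared with other genes. Of the stalk genes, Atp5o had the lowest p, with an edgeR adjusted p of 0.408. It had 293.3 and 324.7 CPM in the controls and 375.1 and 395.2 CPM in the knockdown libraries. Atp5s and Atp5sl had log2 fold changes of -0.07 and 0.05.

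**Figure D4:**
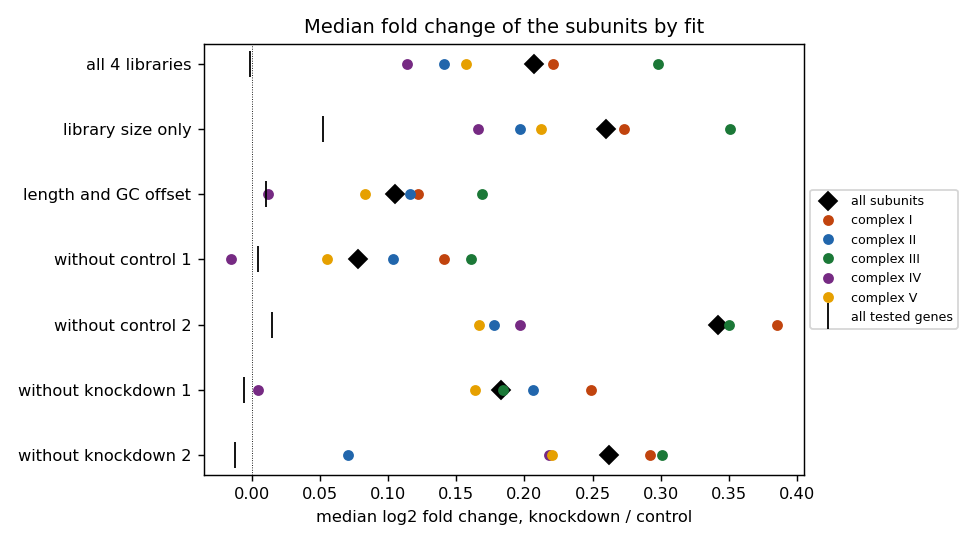
Median log2 fold change, knockdown over control, of all tested subunits (diamonds) and of each complex (circles) on the x axis, under fits named on the y axis, with the median of all tested genes as a vertical tick. The median of all subunits runs from 0.08 without control 1 to 0.34 without control 2, and that of complex IV crosses 0.

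Genes that work with the subunits were described from lists. Assembly factors, which build the complexes without staying in them, had 42 genes tested: 35 lay above 0 and the median was 0.23. At an unadjusted p under 0.05 there were 7 higher and 1 lower, where 6.18% and 5.43% of all genes were. By edgeR 0 of them had an adjusted p under 0.05, and DESeq2 called 1, Ndufaf2, where it called 1.38% of all genes. This gene, whose product assists the peripheral arm of complex I, had 25.8 and 31.3 CPM in the controls and 49.4 and 44.6 CPM in the knockdown libraries (log2 fold change 0.72 ± 0.18, edgeR adjusted p 0.171). Ndufaf4 had 40.8 and 37.4 CPM against 56.5 and 66.2 CPM (log2 fold change 0.65 ± 0.17, edgeR adjusted p 0.171). Among complex IV factors, Cox16 had 11.4 and 12.9 CPM against 20.3 and 23.2 CPM and Cmc1 had 9.86 and 11.7 CPM against 19.6 and 17.8 CPM. In all of these both knockdown libraries stood clear of both controls.

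Subunits and partners that the symbol rule leaves out, such as Ndufab1 and cytochrome c, had 8 genes tested, all above 0, with a median of 0.22. Cycs, somatic cytochrome c, had 96.2 and 95.9 CPM in the controls and 103.0 and 94.6 CPM in the knockdown libraries, so the groups overlapped. Coenzyme Q synthesis had 13 genes tested with 9 above 0 and a median of 0.02, the tricarboxylic acid cycle 18 genes with 12 above 0 and a median of 0.06, and regulators of mitochondrial gene expression 15 genes with 8 above 0 and a median of 0.01. By edgeR 0 genes of these lists had an adjusted p under 0.05, and at an unadjusted p under 0.05 there were 2 of 13, 2 of 18 and 1 of 15 genes in the last 3, all higher, where 6.18% of all genes were. Idh3b, a subunit of isocitrate dehydrogenase, had 129.0 and 128.9 CPM in the controls and 171.3 and 163.2 CPM in the knockdown libraries (log2 fold change 0.38 ± 0.14, edgeR adjusted p 0.321). Coq2, which attaches the isoprenoid tail of ubiquinone, had 19.0 and 24.9 CPM against 27.0 and 37.1 CPM (log2 fold change 0.54 ± 0.22, edgeR adjusted p 0.358). Nrf1 had 62.2 and 63.3 CPM against 58.6 and 67.5 CPM. Esrra, a nuclear receptor that activates such genes, had 31.4 and 35.8 CPM against 42.6 and 45.6 CPM (log2 fold change 0.39 ± 0.17, edgeR adjusted p 0.406), and Ppargc1a had no read. For other sets of mostly short transcripts, mitochondrial ribosomal proteins had 76 genes tested with 61 above 0 and a median of 0.18, and cytosolic ribosomal proteins 84 genes with 61 above 0 and a median of 0.12. With the length and GC offset these medians were 0.13 and 0.03, beside 0.11 for the respiratory subunits.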

How the data were processed

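The 4 libraries (2 control, 2 Cyrano knockdown) were grouped by their titles. Each deposited file holds 1 library's raw counts of reads by gene symbol, not normalized. TopHat, HTSeq, SAMtools, bedtools and build mm9 are named in the submitters' processing notes, and tool versions, annotation, strand and overlap settings are unknown here. Reads at the 5 closing tallies that name no gene (33.1% to 40.8% of all, most of them without a unique alignment) were left out, which lowers genes with near-identical copies.

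Genes were kept by filterByExpr (minimum count 10). Counts were fitted with TMM factors and edgeR 4.0.16 (glmQLFit, robust, and glmQLFTest, R 4.3.3), two-sided, with Benjamini-Hochberg adjustment over all 13199 genes at 0.05. SE was taken as log2 fold change (absolute) divided by the root of F. Levels are CPM with TMM. The biological coefficient of variation came to 17.4%. An exact permutation test of 2 against 2 libraries cannot go below p = 0.333. DESeq2 1.42.0, limma-voom (limma 3.58.1), other scalings and filters, a replicate block, a spline offset for transcript length and GC content, and leaving out each library were alternatives. The fit was tested on simulated data. Replicates differed beyond sampling noise (chi-square over degrees of freedom 25.36 between controls, 20.54 between knockdown libraries).

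Lengths, GC content, 3′ UTRs and shared 50-base windows came from GENCODE M21 (GRCm38) by symbol, which matched 23013 of 23366 symbols (98.5%). Promoters and the mature microRNA came from RefSeq (promoters of GRCm38.p6), and no coordinates were taken from the files.

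Members and lists were chosen with earlier results of these data known. Genes named were, in each complex, the 3 with the lowest p and the 2 most abundant per kilobase, all of complex II, the isoform groups, the extremes, and up to 2 per list with the lowest p; others were added after their values were seen. A result for 1 gene and 1 site are not reported here.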

Additional observations from a re-analysis of the deposited data

How the results depend on the processing

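Each of the 33 named members with a fold change had 16 alternatives. Of these comparisons 486 kept their direction and their side of the threshold, 29 passed it where the reported fit did not, and 12 changed sign, all of them for genes far from the threshold.

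Members called higher numbered 2 with library size only, 4 with no filter on low counts (1 lower) and 3 with DESeq2 (1 lower). Over all genes, 50 of 13199 were called with library size only and 332 of 17005 with no filter. DESeq2 called 136 of the 9872 genes it gave an adjusted p. With 1 library left out, the log2 fold change ran from 0.721 to 0.879 for Atp5g3 and from 0.608 to 0.959 for Atp5l. The labels give replicate numbers but do not say whether same-numbered libraries were handled together, and the reported fit takes them as unpaired. Same-numbered deviations from the group means correlated at 0.244 over all genes and -0.0872 over the members. Whether the libraries are paired is thus unknown, and the number of members called depends on it. With the replicate block 13 members were called higher and 1 lower, among 955 genes called, and with the replicate block and the length and GC offset 5 higher and 2 lower, among 500.

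The median log2 fold change of complex II was 0.197 with library size only. With the length and GC offset that of complex I was 0.122 and that of complex III 0.169, and with the block added 0.126 and 0.173. With 1 library left out, the median ran from 0.0783 to 0.342 over all members, from 0.141 to 0.385 for complex I, 0.0708 to 0.206 for complex II, 0.161 to 0.350 for complex III, -0.0150 to 0.218 for complex IV and 0.0550 to 0.220 for complex V. Where 1 library was left alone in a group, it was assumed to vary like the other group. Sdhc was -0.00869 with upper-quartile factors and Cox6a1 0.00624 with library size only. With 1 library left out, the log2 fold change ran from -0.0403 to 0.0583 for Sdhc, -0.284 to 0.232 for Cox6a1, -0.0150 to 0.197 for Cox4i1, -0.164 to 0.0257 for Atp5b, -0.224 to 0.0219 for Cox7b, -2.04 to 0.375 for Cox4i2 and -0.327 to 2.12 for Cox8c. The cause was not tested. Chosen after seeing the data, moving Ndufa4 to complex IV gave that complex a median of 0.14, dropping Atp5s and Atp5sl gave complex V 0.19, and of the 46 members with under 5% of shared windows 35 lay above 0. Cox8c had no value under the stricter CPM filter.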
